A study of Mus musculus with 6 samples.

Results

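The genes described here encode the proteins that coat lipid droplets (LDs), fuse them and break down the fat inside them. They are the perilipins *Plin1* to *Plin5*, the CIDE genes *Cidea*, *Cideb* and *Cidec*, and the triglyceride lipases *Pnpla2* and *Lipe*. Members were chosen by gene symbol, and 9 of the 10 have a row among the 19078 genes of the table. *Plin5*, a perilipin of oxidative tissues, has no row under that symbol and was not analysed here. Older symbols were not searched for the members.

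RNAseq was performed on immortalized mouse fibroblasts (MF), with 3 libraries of *Ms4a15* OE cells and 3 of control cells. *Ms4a15* OE cells are a pooled line in which a lentiviral guide directs a CRISPR activation system to the endogenous *Ms4a15* gene. The control libraries are labelled wild type, while the study's methods describe control cells infected with empty lentivirus. Per the study's methods, both derive from male embryonic fibroblasts that carry a conditional *Gpx4* knockout and Cre-ERt2, a recombinase activated by tamoxifen. Both carry the immortalization, grew in serum-containing DMEM, and the labels name no treatment. The study's methods add that the pools were selected with G418. The labels name no separate cultures behind the libraries, so differences between them may be technical.

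The measurement used is the authors' pooled mean, that is, the mean over all 6 libraries of each gene's counts after division by the size factor of the library. A size factor corrects counts for sequencing depth. The pooled mean mixes *Ms4a15* OE and control cells, so a level given below can come from one group or from both. The table's remaining columns are the authors' own comparison of the groups, which was not used, and no test between *Ms4a15* OE and control was possible here. The size factors, read from the 1267 genes with 1 read in all, ran from 0.887 to 1.14, and the largest was 1.28 times the smallest. The pooled means sum to 4.09918e+07, of which the 10 highest genes take 5.01%. *Ms4a15* itself, the activated gene, had a pooled mean of 638 normalized counts.

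An LD is a core of triglycerides and sterol esters under a single layer of phospholipids, onto which perilipins bind. *Plin2* and *Plin3* are made in most cell types, whereas *Plin1* and *Plin4* are typical of adipocytes. CIDE proteins sit where droplets touch and let lipid pass from the smaller to the larger one. *Pnpla2* encodes adipose triglyceride lipase (ATGL), which removes the first fatty acid from a triglyceride, and *Lipe* encodes hormone-sensitive lipase, which acts mainly on the diglyceride that remains.

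*Plin2* dominated the LD coat genes of these fibroblasts, with *Plin3* next and *Plin4* and *Plin1* far below. The pooled mean of *Plin2* was 11334 normalized counts, which exceeds that of 96.5% of all genes listed and leaves 673 genes above it. *Plin3* had a pooled mean of 1289 normalized counts, at percentile 68.7. *Plin4* was at 221 normalized counts and *Plin1* at 10.5, at percentiles 49.6 and 32.7. As a reference point, the median of all genes listed was 237 normalized counts. In bulk RNA such as this, fewer cells that make a transcript and less transcript per cell cannot be told apart.

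**Figure D1:**
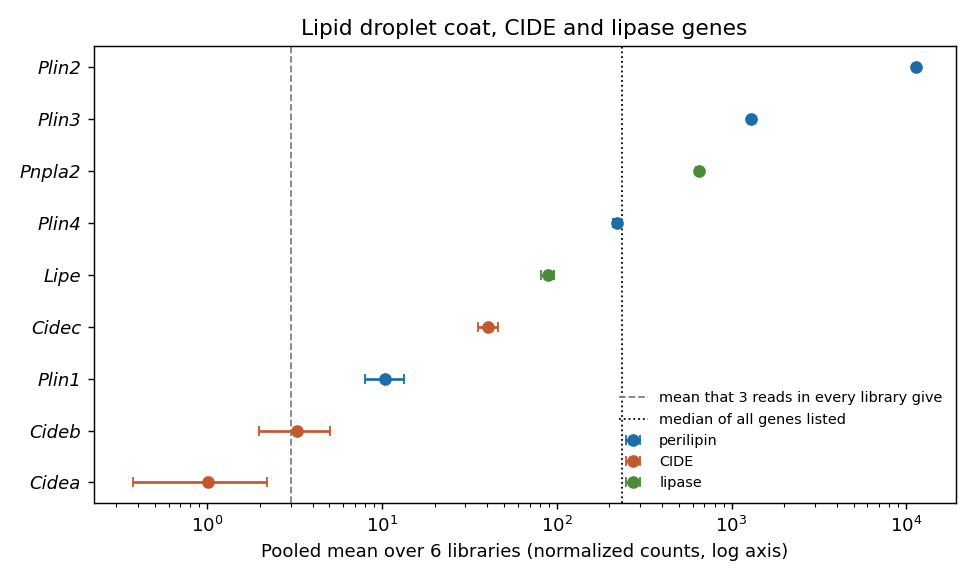
Pooled mean over all 6 libraries (normalized counts, log axis) of the 9 members with a row, with approximate 95% counting intervals as bars. *Plin2*, *Plin3* and *Pnpla2* lie above the dotted median of all genes, and *Cidea* alone lies left of the dashed line at 3.01, the mean that 3 reads in every library would give.

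For most members only counting error can be attached to the pooled mean. From about 6 times the mean in reads, the approximate 95% counting interval was 11249 to 11419 normalized counts for *Plin2*, 1261 to 1318 for *Plin3*, 209 to 233 for *Plin4* and 8.03 to 13.4 for *Plin1*. None of these intervals overlap. They do not hold the variation between libraries, which is given below for *Plin1*, *Cideb* and *Cidea*, or between the groups.

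Longer transcripts collect more reads, so levels were compared per kilobase (kb) of the longest coding sequence annotated for each gene. On this scale *Plin2* stood at 8889 normalized counts per kb, *Plin3* at 983, *Plin4* at 52.4 and *Plin1* at 6.74. *Plin2* was thus 9.04 times as abundant as *Plin3*, with a 95% counting interval of 8.83 to 9.25. It was 1318 times as abundant as *Plin1* (1029 to 1688). These ratios became 16.97 and 2222 per kb of exon, so the intervals do not cover the choice of length. Of the summed level per coding length of the 4 perilipins with a row, *Plin2* made up 89.5%, *Plin3* 9.90%, *Plin4* 0.528% and *Plin1* 0.0679%. With the whole exon length, UTRs included, as divisor, the share of *Plin2* became 93.8% and that of *Plin3* 5.53%. The difference in these shares between the scales reflects the length of *Plin3*. Its exons span 3.645 kb for 1.311 kb of coding sequence, against 1.888 and 1.275 kb for *Plin2*.

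**Figure D2:**
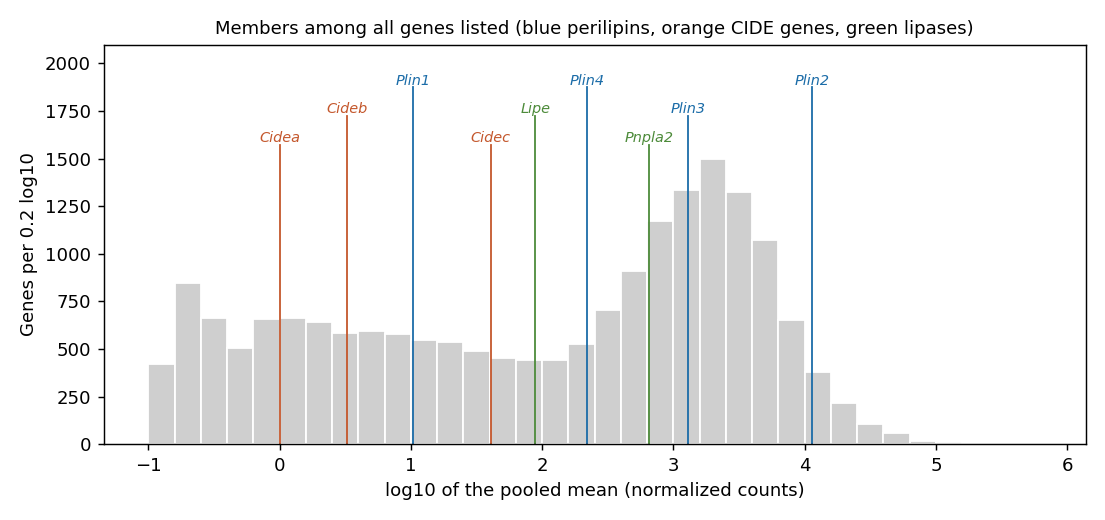
Histogram of the log10 pooled mean of all 19078 genes listed, with a line at each member (blue perilipins, orange CIDE genes, green lipases). *Plin2* falls in the upper tail, *Plin3* and *Pnpla2* on the main hump, and *Plin1*, *Cidea*, *Cideb*, *Cidec* and *Lipe* in the flat range of lower expression.

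*Plin3*, *Plin4* and *Plin5* lie on the reverse strand of chromosome 17 in the mouse genome (GRCm38). *Plin4* runs from 56100591 to 56109803 and *Plin5* from 56111601 to 56117596, with 1797 bases between them. *Plin3* follows 159.9 kb further on, from 56277476 to 56292873. *Plin4* and *Plin3* therefore flank *Plin5*, which has no row under its symbol. *Plin2* lies on chromosome 4 from 86648386 to 86670060 and *Plin1* on chromosome 7 from 79720218 to 79732903, both also on the reverse strand.

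The *Plin4* level rests on an unusual coding sequence. Perilipin 4 is known for a long amphipathic region made of tandem repeats, which holds the protein on droplets. In its coding sequence of 4209 bases, 58.4% of bases were identical to the base 99 positions further on, and 59.9% to the base 297 positions further on, the best of all shifts from 30 to 300 bases. In the other 9 members, *Plin5* included, the best shift gave between 30.2% and 33.4%. Below, a pair of neighbouring units is printed from the GENCODE transcript on GRCm38, at coding positions 679 to 975 and 976 to 1272, with capitals where the units differ. No other pair that starts in frame had more bases in common, and it shows the repeat. The third sequence is the longest stretch that occurs again without a mismatch, at coding positions 1111 to 1400 and 1606 to 1895. It is shown because a read that lies within it has 2 possible positions when taken alone.
Plin4 unit: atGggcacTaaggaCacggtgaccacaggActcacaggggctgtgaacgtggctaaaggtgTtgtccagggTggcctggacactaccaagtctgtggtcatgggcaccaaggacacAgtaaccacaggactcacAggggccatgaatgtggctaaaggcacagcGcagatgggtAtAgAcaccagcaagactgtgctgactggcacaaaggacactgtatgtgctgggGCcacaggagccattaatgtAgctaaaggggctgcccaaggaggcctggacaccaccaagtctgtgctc
Plin4 next unit: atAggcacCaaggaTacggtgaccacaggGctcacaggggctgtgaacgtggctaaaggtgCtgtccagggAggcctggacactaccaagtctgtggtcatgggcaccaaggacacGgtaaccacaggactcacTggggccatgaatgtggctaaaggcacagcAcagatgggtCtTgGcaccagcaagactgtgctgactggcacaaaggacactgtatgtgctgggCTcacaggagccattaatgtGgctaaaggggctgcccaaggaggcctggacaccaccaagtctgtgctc
Plin4 exact repeat: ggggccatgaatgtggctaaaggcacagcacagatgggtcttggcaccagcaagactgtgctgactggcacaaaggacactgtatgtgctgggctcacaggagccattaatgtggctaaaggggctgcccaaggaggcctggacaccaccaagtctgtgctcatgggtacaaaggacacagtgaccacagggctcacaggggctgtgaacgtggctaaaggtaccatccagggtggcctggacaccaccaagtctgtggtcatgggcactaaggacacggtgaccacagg

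The units agree at 282 of 297 bases, and their longest run without a difference is 49 bases. The exact repeat is 290 bases long, and its copies start 495 bases apart. Units at least 75% identical to the next began between coding positions 429 and 2493. Of all windows of 100 bases in the *Plin4* transcript, 8.66% occurred more than once within it, and of windows of 150 bases 5.03%. No window was repeated in any other member. Reads of both lengths are named for these libraries, 150 bases in the labels and 100 in the study's methods. The methods describe paired-end runs, whereas the windows treat each read without the other read of its pair. How the authors counted reads with several positions is not given in the sources used here, and the effect of the repeats on the *Plin4* count was not tested.

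**Figure D3:**
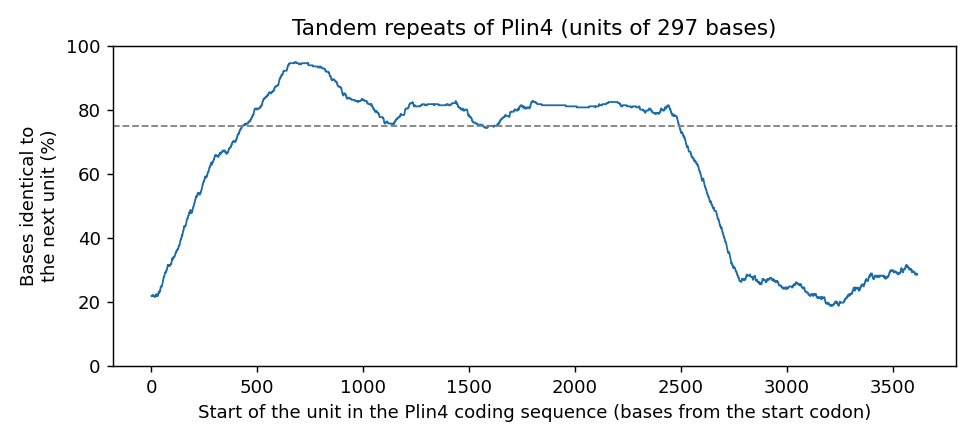
Percent of bases in each 297-base unit of the *Plin4* coding sequence that are identical to the next unit (y axis), against the start of the unit in bases from the start codon (x axis). Identity stays near or above the dashed line at 75% from about position 429 to 2493 and falls to the level of unrelated sequence after the repeats.

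The members shared little exact sequence. Over the 45 pairs of members, the longest exact run shared by the coding sequences was 16 bases, between *Plin2* and *Plin4*. Outside the members, 4 of the 100-base windows of *Plin2* (0.224%) were shared with the transcript Gm12551, and none of any other member.

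*Cidec* was the main CIDE gene in the pooled mean, and *Cidea* and *Cideb* were at the edge of detection. *Cidec*, whose product drives the growth of large droplets in white fat, had a pooled mean of 40.5 normalized counts, with a counting interval of 35.5 to 45.9. *Cideb*, best known from hepatocytes, was at 3.24 and *Cidea*, best known from brown fat, at 1.01 normalized counts. The floor used here is a pooled mean of 3.01 normalized counts, the value that 3 reads in every library would give. Of the 9 members with a row, 8 reached it and *Cidea* did not. Of all genes listed, 75.8% reached it. Per kb of coding sequence, *Cidec* stood at 54.2, *Cideb* at 4.94 and *Cidea* at 1.55 normalized counts, so that *Cidec* made up 89.3% of the summed CIDE level. *Cidec* lies on chromosome 6 from 113424634 to 113435760, *Cideb* on chromosome 14 from 55754050 to 55758458 and *Cidea* on chromosome 18 from 67343604 to 67367785.

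The *Cideb* level is uncertain because 71.0% of its exon bases (860) overlap exons of *Nop9* on the opposite strand. *Nop9*, a gene of ribosome biogenesis listed under its older symbol 2610027L16Rik, had a pooled mean of 3276 normalized counts, 1010 times that of *Cideb*. The labels describe a strand-specific kit, the study's methods one that does not mention strand, and neither says whether counting used strand. Reads of *Cideb* and *Nop9* in the shared exons can therefore not be told apart from this table.

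For low genes the pooled mean can be turned back into whole reads. Each read adds a fixed step to the mean, of a size set by its library, and the table keeps enough decimals that few combinations of reads give the same value. All 4995 genes with a pooled mean under 4 came out as exactly 1 combination. The steps were fitted on genes of this same range, so this is no separate test of the recovery. Among the members, *Cidea*, *Cideb* and *Plin1* came out as 1 combination. *Plin1* lies above that range and had 10 combinations at a tolerance 10 times wider, so its reads are less certain. The libraries found this way carry no label, so they are numbered by rising size factor and belong to neither group here.

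*Plin1* encodes the perilipin that guards the droplets of adipocytes against lipases. In the combination found, it had 14, 9, 8, 14, 11 and 6 reads in libraries 1 to 6. In that combination it was seen in every library, with 5.28 to 15.8 normalized counts and a median of 9.77. Its 62 reads in all have an exact Poisson 95% interval of 47.5 to 79.5, which covers counting error only. *Cideb* had 6, 3, 2, 3, 2 and 3 reads, 19 in all (11.4 to 29.7). That is 1.81 to 6.77 normalized counts with a median of 2.79, and library 1 held the most. *Cidea* had 3, 0, 0, 0, 2 and 1 reads, 6 in all (2.20 to 13.1), so 3 of the libraries held none. For *Cidec*, 541 combinations were possible, and the reads of its libraries could not be recovered.

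**Figure D4:**
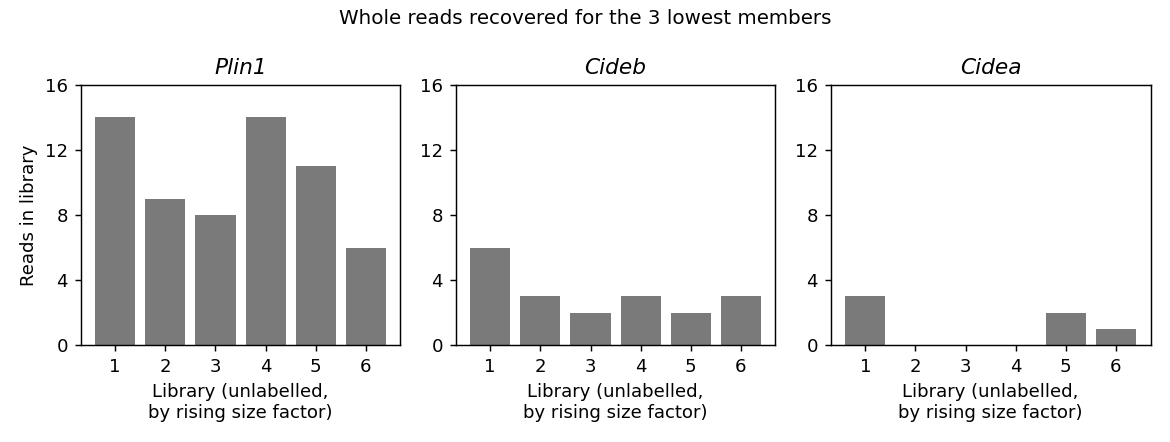
Whole reads of *Plin1*, *Cideb* and *Cidea* (y axis) in each of the 6 unlabelled libraries, ordered by rising size factor (x axis). In the combinations found, *Plin1* has between 6 and 14 reads in every library, *Cideb* between 2 and 6, and *Cidea* has reads in 3 libraries.

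Of the lipases, *Pnpla2* was far more abundant than *Lipe*. *Pnpla2* had a pooled mean of 649 normalized counts (counting interval 629 to 670), at percentile 59.2 of all genes listed. *Lipe* was at 89.1 normalized counts (81.7 to 96.9), at percentile 44.7. Per kb of coding sequence the levels were 445 and 27.7 normalized counts, a ratio of 16.1 (14.7 to 17.6), and per kb of exon the ratio was 15.2. The interval covers counting error only and not the choice of transcript. The divisor for *Lipe* was its longest annotated coding sequence, 3.216 kb, and a shorter one would lower the ratio. Both genes lie on chromosome 7, *Pnpla2* on the forward strand from 141455198 to 141460743 and *Lipe* on the reverse strand from 25379527 to 25398710. Of the exon bases of *Lipe*, 15.7% overlap the antisense gene 4732471J01Rik, which had a pooled mean of 39.5 normalized counts, so reads from those bases could not be assigned to one of the genes in a count without strand.

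Set in order per kb of coding sequence, the members ran from *Plin2* through *Plin3*, *Pnpla2*, *Cidec*, *Plin4*, *Lipe*, *Plin1* and *Cideb* to *Cidea*. On this scale *Plin3* was 2.21 times as abundant as *Pnpla2* (counting interval 2.12 to 2.29), and *Pnpla2* 8.22 times as abundant as *Cidec* (7.22 to 9.36). Per kb of exon these ratios were 1.43 and 10.7, so the intervals do not cover the choice of length. *Cidec* and *Plin4* could not be ordered, with a ratio of 1.03 and an interval of 0.901 to 1.18. Nor could *Plin1* and *Cideb*, at a ratio of 1.37 (0.822 to 2.27). The intervals of *Cideb* and *Cidea* overlapped as well, although the interval of their ratio, 1.28 to 7.90, did not contain 1. Per kb of exon, *Cidec* and *Plin4* changed places, with *Cidec* at 0.604 times the level of *Plin4* and intervals that did not overlap.

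**Figure D5:**
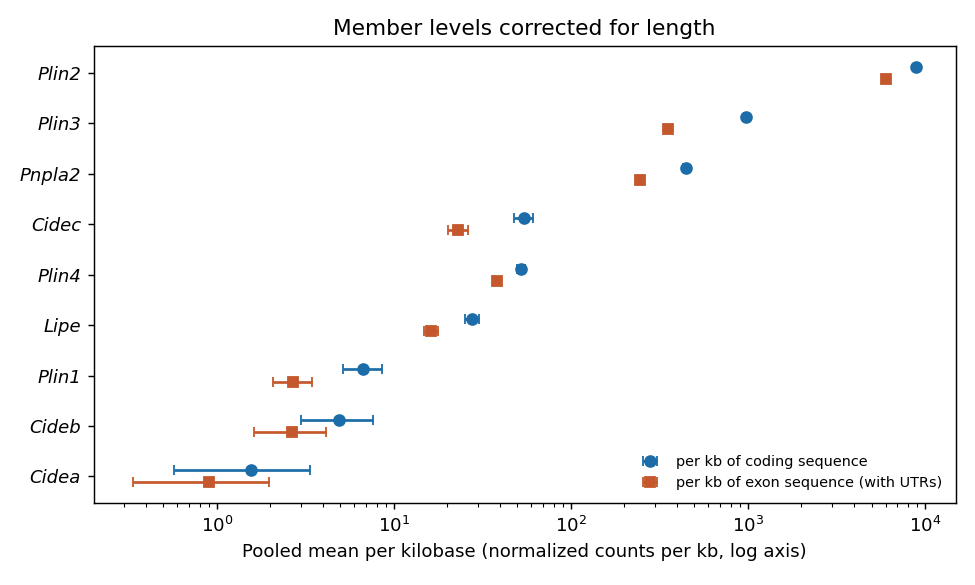
Pooled mean per kb of coding sequence (circles) and per kb of exon sequence with UTRs (squares), in normalized counts per kb on a log axis, with approximate 95% counting intervals. The order is that of the coding scale, and *Cidec* and *Plin4* are the pair that changes places on the exon scale.

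Triglyceride breakdown depends on partners of ATGL as well as on the lipases. *Abhd5*, the coactivator of ATGL, was at 2343 normalized counts per kb of coding sequence, 5.26 times the level of *Pnpla2*. *Hilpda*, an inhibitor of ATGL induced by hypoxia, was at 5384 normalized counts per kb, 12.1 times the level of *Pnpla2*, and is listed under an older symbol. Before division by length, the pooled means were 2467 normalized counts for *Abhd5* and 1034 for *Hilpda*, against 649 for *Pnpla2*. The ratio for *Hilpda* thus rests largely on the coding length used as divisor, and levels per kb of exon were not compared for these partners. *G0s2*, the other well-known ATGL inhibitor, had 1 read in all 6 libraries together. *Mgll*, whose product hydrolyses the last fatty acid from a monoglyceride, had 10 reads, spread over 5 libraries. A single read gives no level, so whether *G0s2* was expressed was not detectable at this depth.

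Of 30 other genes of LD formation and turnover, 26 had a row and 23 of these reached the floor, as did 75.8% of all genes listed. *Cebpa*, *G0s2* and *Mgll* did not. *Fitm1*, *Pnpla3*, *Lpl* and *Hsd17b13* had no row. The median pooled mean of the 26 genes was 804 normalized counts, against 237 over all genes listed. The highest were *Vcp*, an ATPase that extracts proteins from membranes, at 32035 normalized counts, *Cav1*, the caveolar coat protein that also reaches droplets, at 11554, and *Rab18*, a droplet-bound GTPase, at 7119. *Pparg*, a nuclear receptor of the adipocyte programme that is known to drive *Plin1*, *Plin4* and *Cidec*, was at 161 normalized counts, or 106 per kb of coding sequence, 2.02 times the level of *Plin4* on that scale. *Cebpa*, its usual partner in adipocytes, had 1 read in all 6 libraries.

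The identity of the cells was checked against marker genes. All 10 fibroblast markers reached the floor, led by *Col1a2* at 135155 normalized counts, *Vim* at 115135 and *Fn1* at 114243. The lowest of them was *Dcn*, at 12.1 normalized counts. Of all genes listed, 75.8% reached the floor, so reaching it does not by itself mark a cell type. Of 8 adipocyte markers, 5 had a row and 1 reached the floor, *Fabp4* at 8.38 normalized counts beside 10.5 for *Plin1*. *Adipoq*, the defining hormone of adipocytes, had 2 reads in all libraries, *Ucp1* 2, *Cfd* 1 and *Adrb3* 5, and the list summed to 10.1 normalized counts. Of 6 macrophage markers, 5 had a row and all 5 of them reached the floor, with *Lyz2* at 534, *Cd68* at 164, *Csf1r* at 13.2, *Ptprc* at 11.1 and *Itgam* at 5.79 normalized counts. The list summed to 728 normalized counts, and its part in the members' levels was not tested. Of the 6 epithelial markers 1 reached the floor, *Krt8* at 10.9, and *Apob* at 63.9 was the only 1 of the 2 hepatocyte markers with a row to do so, with *Alb* at 1 read. Both muscle markers with a row reached it, *Acta1* at 5.41 and *Myh3* at 7.97.

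The 250 bases before the RefSeq start sites (GRCm38.p6) were searched for short motifs. Promoters were found for 8 of the 9 members with a row. CpG dinucleotides numbered 6 for *Plin2*, 7 for *Plin3*, 6 for *Plin4*, 12 for *Pnpla2* and 1 for *Plin1*, against a median of 6 over 32851 promoters. *Lipe* has start sites with 18 and 1. The GC box GGGCGG, searched on both strands and found in 32.7% of all promoters, matched 3 times in *Plin3*, 2 times in *Pnpla2*, 6 times before one start of *Lipe* and once in *Cideb*. The nuclear receptor half-site AGGTCA, found in 14.02% of all promoters, matched once in *Plin2*, and TATAAA, found in 12.4%, once in *Cideb*. The PPAR response element, a direct repeat of AGGTCA with 1 base between the copies, was in 0.0335% of all promoters, too few for the lack of a match among the members to say anything. These are matches of letters in short windows, and binding was not measured.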

How the data were processed

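RNAseq of poly(A)-selected RNA from immortalized mouse fibroblasts comprised 3 *Ms4a15* OE and 3 control libraries. Per the study's methods, the authors aligned reads to mm10 with STAR, used HTSeq-count for gene counts and ran DESeq2. The signal used here, as deposited by the authors, averages the size-factor-scaled counts of the 6 libraries. The table's fold changes, standard errors, p-values and directions are the authors' own comparison and were not used, so the planned test of *Ms4a15* OE against control was not run.

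Genes named are the members, *Ms4a15*, genes of the droplet and marker lists that had the highest means or fell under the floor, overlapping genes and those discussed as partners of the lipases. *Pparg*, *Abhd5*, *Hilpda*, *Nop9*, *Ptprc*, *Itgam*, *Dcn*, Gm12551 and 4732471J01Rik were picked after their values were seen. Members and lists were chosen with earlier results of these data known. No library recovered from the table was assigned to a group.

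Steps of 1 read were fitted by least squares, and reads were recovered within 1.2 times the rounding of the deposited value. The recovery was run on simulated data that took the fitted steps as exact, so error in the steps was not tested. Lengths came from GENCODE M21 (GRCm38), in which 15819 genes were matched, among them 95.5% of the 10440 genes whose pooled mean reached 100. Counting intervals used the Poisson distribution at 95%. Python 3.11.15, numpy 2.4.6, pandas 2.3.3, scipy 1.17.1 and matplotlib 3.10.9 were used.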

Additional observations from a re-analysis of the deposited data

How the results depend on the processing

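Per kb of exon instead of coding sequence, 2 of the 9 members changed rank, *Cidec* and *Plin4*. Without a length correction 3 did, because long genes such as *Plin4* and *Lipe* collect more reads. A floor at a pooled mean of 10.02, the value that 10 reads in every library would give, left 7 members in place of 8. The 23 droplet genes stayed as before. A tolerance 10 times wider left 2 members with a single combination of reads, and *Plin1* then had 10. Leaving the 10 highest genes out of the sum raised each member's share of the summed means (CPM), for *Plin2* from 276 to 291. The factor is by construction the same for every gene. It exceeded counting error for 3 of 9 members, those with the highest pooled means and so the narrowest relative intervals. When genes under 10 normalized counts were left out, percentiles were lower for the 7 members concerned, for *Plin4* 25.5 in place of 49.6. No paired analysis was possible because the table gives no values of labelled libraries, and the tests on counts, their other tools and filters, and leaving out replicates were not run for the same reason. The spread between libraries was had for *Plin1*, *Cideb* and *Cidea* alone among the members, without the groups of the libraries, and a pooled mean holds no difference between *Ms4a15* OE and control.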
